A study of Mus musculus with 14 samples.

Results

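The miR-106b-25 and miR-106a-363 clusters are paralogues of the cluster transcribed from Mir17hg, which holds miR-17, miR-20a and miR-92a. Their members were taken by TaqMan assay number: 442 for miR-106b, 1090 for miR-93 and 403 for miR-25 from the miR-106b-25 cluster, and 1014 for miR-20b and 1271 for miR-363 from the miR-106a-363 cluster. These 5 assays are 5 of the 516 rows in the deposited table, and all 5 names were listed on card A in every run. The table itself holds numbers only, so the names rest on the assay number, and for miR-20b a conflict with the authors' report is described below. MiRNA levels were profiled in the whole lung of the mouse (outbred ICR stock) at 7 ages with 2 samples each: embryonic days 12, 14, 16 and 18 (E12, E14, E16, E18), postnatal days 2 and 10 (P2, P10) and adult. Lungs were untreated and were pooled before RNA extraction, and the day of the vaginal plug was day 0. Whether both samples of an age came from separate pools is not given in the sources used here, so p-values rest on the spread between these samples alone, and that spread may be technical. P2, P10 and adult are called postnatal below (6 samples) and E12 to E18 embryonic (8 samples).

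A miRNA represses mRNAs that pair with its seed, the bases near its 5′ end, and miRNAs with the same seed share most of their predicted targets. The family to which these clusters belong is known for promoting proliferation and survival, with Cdkn1a (p21, a cell cycle inhibitor), E2f1 (a cell cycle transcription factor) and Bcl2l11 (Bim, a pro-apoptotic protein) among its known targets. In mice, loss of the Mir17hg cluster is known to leave the lungs hypoplastic. The miR-106b-25 cluster is known to lie in an intron of Mcm7, which encodes a subunit of the helicase that unwinds DNA for replication.

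The mature sequences of the members, from RefSeq on GRCm38.p6, are shown because they divide the 5 miRNAs into 2 seed groups that cut across the 2 clusters. Capitals mark the seed, bases 2 to 8.
miR-106b-5p: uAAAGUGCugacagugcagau
miR-93-5p: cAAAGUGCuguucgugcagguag
miR-20b-5p: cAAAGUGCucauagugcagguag
miR-25-3p: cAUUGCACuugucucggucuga
miR-363-3p: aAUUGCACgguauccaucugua
MiR-106b, miR-93 and miR-20b share the seed AAAGUGC, and miR-25 and miR-363 share AUUGCAC. Over the whole length, miR-93 and miR-20b were the closest pair, with 3 different bases in 23 positions, whereas miR-25 and miR-363 differed at 13 of 22. MiR-20b differed at 2 of 23 positions from each of miR-106a, miR-17 and miR-20a, and miR-25 at 3 of 21 from miR-92a, so that detection of a near relative by these assays is possible and was not tested.

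The 3 hairpins of the miR-106b-25 cluster lie within 498 bases on the minus strand at chr5:138165321-138165818, inside the bounds of Mcm7 at chr5:138164583-138172111. MiR-106b is the first in the direction of transcription, at chr5:138165787-138165807, followed by miR-93 at chr5:138165574-138165596 and miR-25 at chr5:138165332-138165353. The miR-106a-363 cluster has 6 hairpins within 875 bases on the minus strand at chrX:52741693-52742567. MiR-20b lies at chrX:52742159-52742181 and miR-363 at chrX:52741697-52741718, next to the 3′ end of the cluster.

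Levels are given as ΔCT, the threshold cycle of the assay minus that of U6 small nuclear RNA, so that more RNA gives a lower ΔCT, and a difference of 1 cycle is taken as 2-fold, which holds for assays that double their product at each cycle. Changes are given as log2 of the level, which is minus ΔCT, and a negative change means a lower level at the later age. Of the 70 member values, 58 were measured and 12 were blank, and blanks were treated as missing. The 93 differences between members measured in the same sample all fell within 0.0624 of a whole number of cycles. The values therefore resolve steps of about 1 cycle, and a small SD between 2 samples means only that both fell on the same step. The global mean, which is the average ΔCT of the 219 assays with a value in every sample, lay between 9.94 and 11.6 and was lowest in the 2 E18 samples, so each change is also given after scaling to the global mean where this alters a call. In whole lung, fewer cells of a type and less RNA per cell cannot be told apart.

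MiR-93 had the lowest ΔCT of the members and thus the highest level at each age. Its ΔCT was 8.02 and 7.15 (E12), 7.20 and 8.14 (E14), 7.06 and 7.22 (E16), 7.05 and 8.10 (E18), 9.16 and 8.24 (P2), 9.08 and 9.06 (P10), and 9.13 and 9.14 (adult). All 6 postnatal values were above all 8 embryonic values, but the gap of 0.0999 cycles between the nearest ones was smaller than the resolution. MiR-106b, its cluster neighbour with the same seed, had a ΔCT of 9.02 and 9.16 (E12), 9.23 and 9.13 (E14), 9.09 and 8.21 (E16), 8.07 and 9.10 (E18), 10.17 and 9.26 (P2), 10.09 and 10.06 (P10), and 10.14 and 10.15 (adult). Postnatal and embryonic values of miR-106b did not overlap either, with a gap of 0.0333 cycles that was again smaller than the resolution.

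MiR-25, the third member of this cluster, carries the other seed. Its ΔCT was 12.02 and 11.15 (E12), 11.21 and 12.13 (E14), 11.07 in E16 replicate 1, 10.05 and 11.09 (E18), 12.15 and 12.26 (P2), 12.08 and 12.03 (P10), and 12.11 and 12.13 (adult), and it was blank in E16 replicate 2. The 6 postnatal values lay between 12.03 and 12.26, and the lowest of them was below the highest embryonic value of 12.13. Against U6, the highest mean level of miR-25 was at E18, where its mean ΔCT was 10.6 ± 0.73 (SD, n = 2). Relative to the global mean, E18 had its lowest embryonic level. There its mean ΔCT minus the global mean was 0.41, against 0.05 (E12), 0.23 (E14) and 0.11 (E16, 1 sample).

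Of the miR-106a-363 cluster, miR-20b had a ΔCT of 12.00 and 11.15 (E12), 11.22 and 11.13 (E14), 11.08 and 11.23 (E16), 12.07 and 12.10 (E18), 14.18 and 13.25 (P2), 14.08 and 14.07 (P10), and 13.12 in adult replicate 1. Adult replicate 2 was blank, so that the adult mean of miR-20b rests on 1 sample. The 5 postnatal values and the 8 embryonic values were separated by 1.02 cycles, the widest gap of the members. These levels conflict with the authors' report, which lists miR-20b among the dynamically regulated miRNAs. To be listed there, a miRNA had to have a minimum ΔCT below 10. Here the lowest age mean of miR-20b was 11.15 (E16), and its lowest single value was 11.08. Whether the name given to this assay or the level used by the authors differs was not tested. MiR-363 was measured in 4 samples only, with a ΔCT of 18.26 in E14 replicate 1, 17.10 and 16.23 (E16), and 17.11 in E18 replicate 1. It was blank in all 6 postnatal samples, in which other assays were measured up to a ΔCT of 17.5 to 19.9, and in the other 4 embryonic samples. Since assays measured in 13 of the 14 samples had means down to a ΔCT of 6.38, a blank is not by itself a low level, and no fold is given for miR-363.

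**Figure D1:**
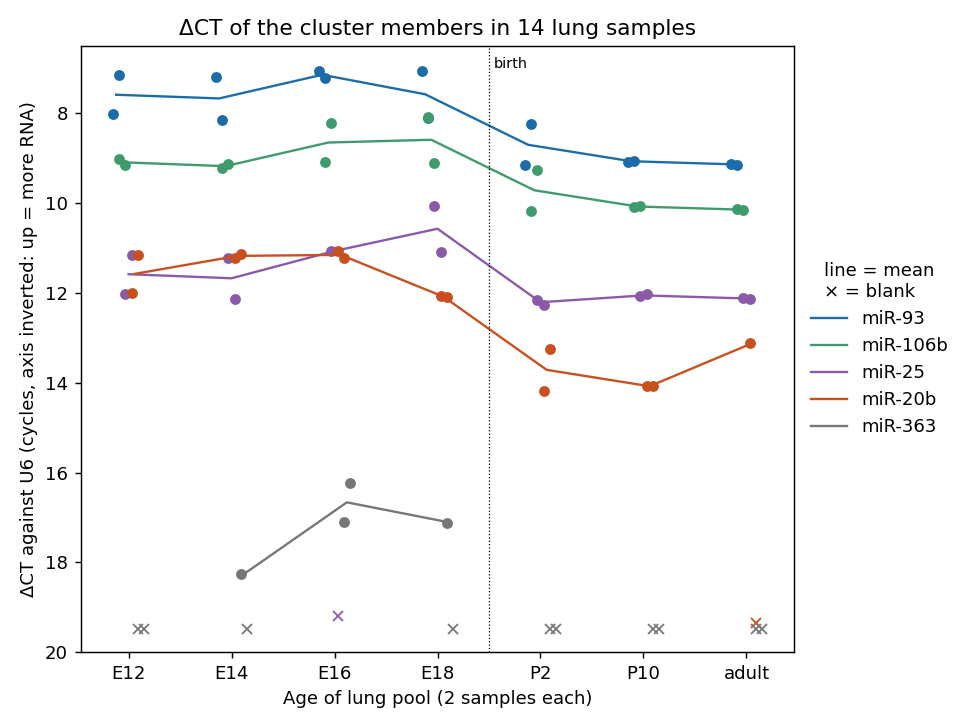
ΔCT against U6 (y axis, in cycles, inverted so that up is more RNA) of the 5 miRNAs at 7 ages (x axis), with 1 point for each sample, a line through the age means and crosses near the bottom for blanks. MiR-20b lies between 13.12 and 14.18 in the postnatal samples and between 11.08 and 12.10 in the embryonic ones, and miR-363 appears in 4 embryonic samples only.

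Postnatal levels were lower than embryonic levels for each of the 4 members that could be tested. MiR-20b showed the largest difference and miR-25 the smallest. MiR-20b was 4.40-fold lower (log2 change -2.14, SE 0.24, adjusted p = 3.57e-05 by limma's moderated test, with 5 postnatal and 8 embryonic samples). MiR-93 was 2.78-fold lower (log2 change -1.48, SE 0.27, limma adjusted p = 5.99e-04) and miR-106b 2.14-fold lower (log2 change -1.10, SE 0.24, limma adjusted p = 0.00234). MiR-25 was 1.87-fold lower (log2 change -0.91, SE 0.27, limma adjusted p = 0.0144, with 7 embryonic samples). Of all 263 assays tested, 31.9% were called lower in this comparison and the median log2 change was 0.02, against a median of -1.29 for the 4 members. This comparison was added after the values had been seen.

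Scaling to the global mean left all 4 called, with log2 changes of -2.12 for miR-20b, -1.39 for miR-93, -1.01 for miR-106b and -0.82 for miR-25, and again 31.9% of all assays called lower. The call of miR-25 turned on its 1 blank: with blanks set to a common floor of 19.9, the log2 change was 0.19 (limma adjusted p = 0.896). The same floor took miR-20b, which has 1 blank adult sample, to -3.26 (adjusted p = 0.012). Against U6, 13.2% of the 219 assays measured in all samples had postnatal values wholly below the embryonic ones, as did miR-93, miR-106b and miR-20b among the members. After scaling to the global mean this share was 8.22%, and of the members only miR-20b still had groups that did not overlap. Its lowest postnatal value was then 13.28 and its highest embryonic value 13.19, which is closer than the resolution. With its 1 blank, miR-20b is not among the 219 assays.

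**Figure D2:**
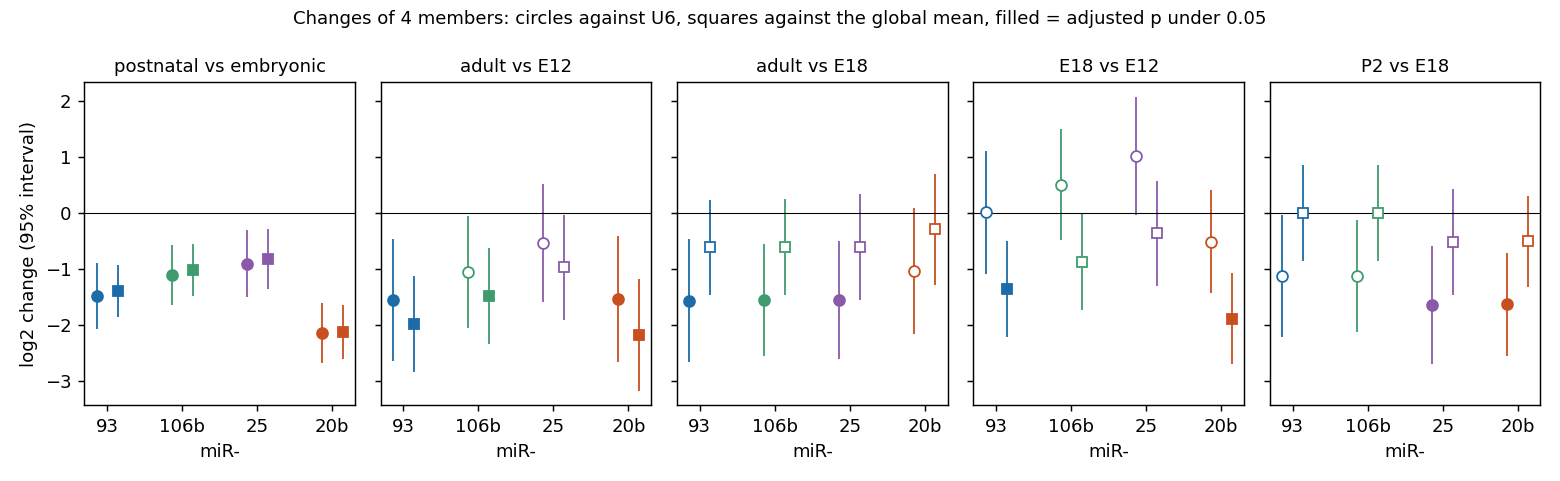
Log2 change (y axis) of 4 miRNAs in 5 comparisons (panels), with 95% intervals, against U6 (circles) and against the global mean (squares). Filled symbols passed an adjusted p of 0.05, as all 4 did between postnatal and embryonic samples under both scalings, while none did between adult and E18 against the global mean.

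Over the 7 ages, limma's moderated F test called miR-20b (range of age means 2.92 cycles, adjusted p = 5.02e-04), miR-93 (2.00 cycles, 0.0143) and miR-106b (1.56 cycles, 0.0328) changed, and not miR-25 (1.64 cycles, 0.0731). The same 3 were called after scaling to the global mean. Most of the table changed over this span, with 74.9% of 263 assays called against U6 and 74.1% against the global mean. The call of miR-106b was lost in 9 of the 14 fits that left out 1 sample, with adjusted p of 0.0179 to 0.0714 over the 14 fits, and held without E12 replicate 2, E16 replicate 1, E18 replicate 2 or either P2 sample. It was also lost with the ordinary test (adjusted p = 0.0615), with run day as a random block (0.0532) and with blanks at a common floor (0.0577). The call of miR-20b was lost with blanks at a common floor (adjusted p = 0.107).

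Between adult and E12, the ends of the time course, miR-93 and miR-20b were lower in the adult. MiR-93 had a mean ΔCT of 9.14 ± 0.0047 in the adult and 7.59 ± 0.61 at E12 (SD, n = 2 each), which is -1.55 on the log2 scale (SE 0.49, adjusted p = 0.0228 by limma). MiR-20b had a ΔCT of 13.1 in the 1 adult sample and 11.6 ± 0.61 at E12 (SD, n = 2), which is -1.54 on the log2 scale (SE 0.50, adjusted p = 0.0273 by limma). With 1 adult value, this SE takes the spread from the other ages and assumes that the adult varies alike, and with the adult blank at a common floor the log2 change was -4.91 (adjusted p = 0.0367). The values of miR-106b (-1.05, adjusted p = 0.0709) and miR-25 (-0.54, adjusted p = 0.358) did not pass, and 21.4% of all assays were called lower in the adult. With the global mean, miR-106b (-1.48, adjusted p = 0.00594) was called beside miR-93 (-1.98) and miR-20b (-2.18), against 29.1% of all assays. Without E12 replicate 2 neither miR-93 (adjusted p = 0.14) nor miR-20b (0.11) was called against U6, and without either adult sample miR-93 was not called (0.0716 and 0.0765). MiR-20b also lost its call with the replicate number as a block (adjusted p = 0.0586).

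The timing of the decline differed with the scaling. Against U6, no member was called between E18 and E12, a comparison in which 0.313% of all assays were called lower and 37% higher. The log2 changes were 1.01 for miR-25, 0.50 for miR-106b, 0.01 for miR-93 and -0.51 for miR-20b. Against the global mean, miR-20b (-1.88, limma adjusted p = 0.00268) and miR-93 (-1.36, 0.0165) were already lower at E18 than at E12, with 22.6% of all assays called lower, while miR-106b was at -0.87 and miR-25 at -0.36. The median of all assays moved by 0.99 against U6 and by -0.38 against the global mean between these ages.

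Between adult and E18, calls of members were made against U6 only. There, miR-106b (-1.56, limma adjusted p = 0.0209), miR-93 (-1.56, 0.0306) and miR-25 (-1.55, 0.0291) were lower in the adult, beside 27.7% of all assays, and miR-20b was at -1.03 (0.143) from its 1 adult sample, or -4.40 (0.0687) with the blank at a common floor. None of the 4 passed against the global mean, with log2 changes from -0.62 to -0.29, and 19% of all assays were called lower. The 3 calls against U6 were lost without E18 replicate 1, the sample with the lowest global mean, and without either adult sample. The call of miR-25 was also lost with blanks at a common floor (adjusted p = 0.611).

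**Figure D3:**
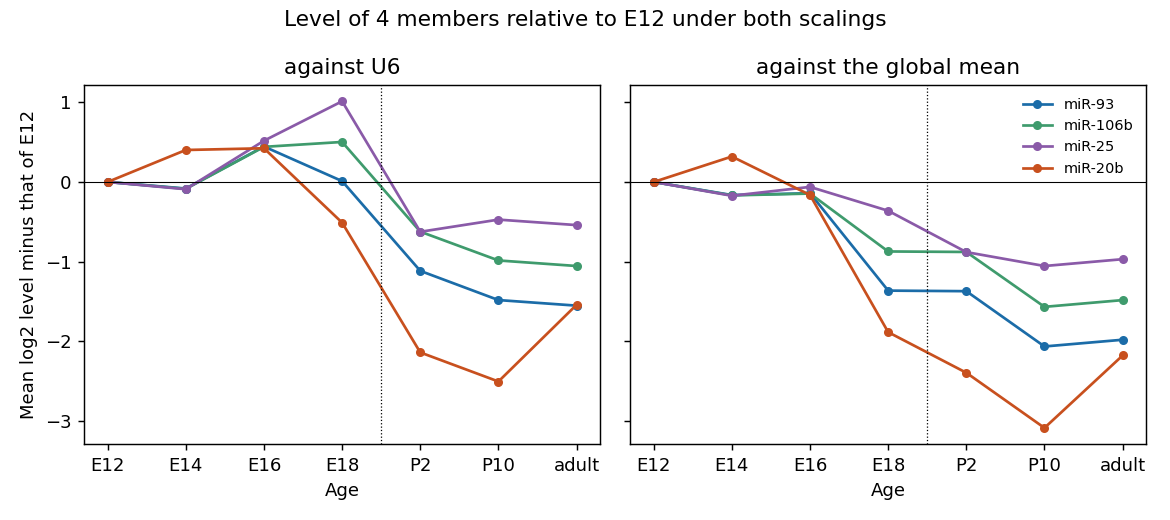
Mean log2 level of 4 miRNAs at each age minus the mean at E12 (y axis), against U6 (left) and against the global mean (right). Against U6, miR-25 stands 1.01 above E12 at E18 and miR-20b 0.51 below it, while against the global mean all 4 stand below E12 at E18, by 0.36 to 1.88.

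At the successive steps, calls against U6 were made across birth only. Between P2 and E18, miR-25 (log2 change -1.64, SE 0.47, limma adjusted p = 0.0255) and miR-20b (-1.63, SE 0.41, 0.0190) were lower at P2, and miR-106b (-1.12, 0.0727) and miR-93 (-1.13, 0.0948) did not pass. At this step 34.1% of all assays were called lower, and the median of all assays was -1.13. After scaling to the global mean, 2.27% were called lower and none of the members was, with miR-106b and miR-93 at -0.01 and miR-25 and miR-20b at -0.52 and -0.51. Both calls against U6 were lost without E18 replicate 1, without P2 replicate 1 and with blanks at a common floor, and that of miR-25 also without P2 replicate 2.

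The only call at a step against the global mean was made before birth. MiR-20b was lower at E18 than at E16 (log2 change -1.72, SE 0.37, limma adjusted p = 0.0276), a step at which 1.52% of all assays were called lower. Against U6 this step gave -0.93 (adjusted p = 0.155), from a mean ΔCT of 12.1 ± 0.017 at E18 and 11.2 ± 0.11 at E16 (SD, n = 2 each). No member was called against U6 at the other steps, where 0.315% (E14 against E12), 0.619% (E16 against E14), 10.1% (E18 against E16), 16.4% (P10 against P2) and 11.4% (adult against P10) of all assays were called in either direction.

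The day of each run is not stated, and run day here is the date of last modification in the header of card A. It may differ from the day of the run. None of the 7 dates was shared by samples further apart than neighbouring ages, so run day and age are largely confounded. E14 replicate 2 and adult replicate 2 each had a date of their own. One P2 sample and 1 E18 sample shared a date. Within it the log2 change against U6 was -1.06 for miR-106b, -1.06 for miR-93, -1.07 for miR-25 and -2.08 for miR-20b. Against the global mean these same-date values were 0.15 for the 3 members of the miR-106b-25 cluster and -0.86 for miR-20b. For E18 against E16, 1 and 2 samples with a shared date gave miR-20b a change of -0.92 against U6 and -1.92 against the global mean. With run day as a random block, all 4 members were called lower in postnatal samples, with adjusted p of 8.36e-05 to 0.0348.

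Differences between members of the same sample need no internal control, since U6 and the global mean cancel. They rest on the assumption that both assays amplify alike at all levels, which was not tested. MiR-93 was above miR-106b in every sample, and the difference averaged 1.01 ± 0.0062 (SD, n = 6) on the log2 scale in the postnatal samples and 1.38 ± 0.53 (SD, n = 8) in the embryonic ones. The postnatal values lay on a single step and the embryonic values on 2 steps, and the change of -0.37 was not past the spread (exact permutation test, two-sided, p = 0.275, adjusted over 5 pairs p = 0.344). MiR-25 minus miR-106b averaged -2.15 ± 0.42 (SD, n = 6) in the postnatal samples and -2.27 ± 0.50 (SD, n = 7) in the embryonic ones, a change of 0.12 (exact permutation p = 0.594, adjusted p = 0.594). MiR-25 minus miR-93 averaged -3.16 ± 0.42 (SD, n = 6) in the postnatal samples and -3.71 ± 0.49 (SD, n = 7) in the embryonic ones (exact permutation p = 0.106, adjusted p = 0.177).

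Between the clusters, miR-20b was set against the members with its own seed. The difference miR-20b minus miR-106b averaged -3.80 ± 0.46 (SD, n = 5) on the log2 scale in the postnatal samples and -2.62 ± 0.75 (SD, n = 8) in the embryonic ones. The means by age were -2.48 (E12), -1.997 (E14), -2.50 (E16) and -3.50 (E18), then -4.00 at both P2 and P10, and the 1 adult sample had -2.98. The groups overlapped, and the change of -1.18 gave an exact permutation p of 0.0264, which was 0.132 after adjustment over 5 pairs. MiR-20b minus miR-93 averaged -4.81 ± 0.46 (SD, n = 5) in the postnatal samples and -4.00 ± 0.54 (SD, n = 8) in the embryonic ones (exact permutation p = 0.0559, adjusted p = 0.140). The smallest p that these group sizes allow is 0.00155. All the permutation tests exchanged single samples between the groups, so they take the 2 samples of an age as independent, which was not tested. Of the 7 pairs planned, both with miR-363 had no postnatal value. Where measured, miR-363 minus miR-20b was -7.04 at E14, -5.51 ± 0.72 at E16 (SD, n = 2) and -5.04 at E18. MiR-363 minus miR-25 was -7.05 at E14, -6.03 at E16 and -7.06 at E18, from 1 sample each.

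**Figure D4:**
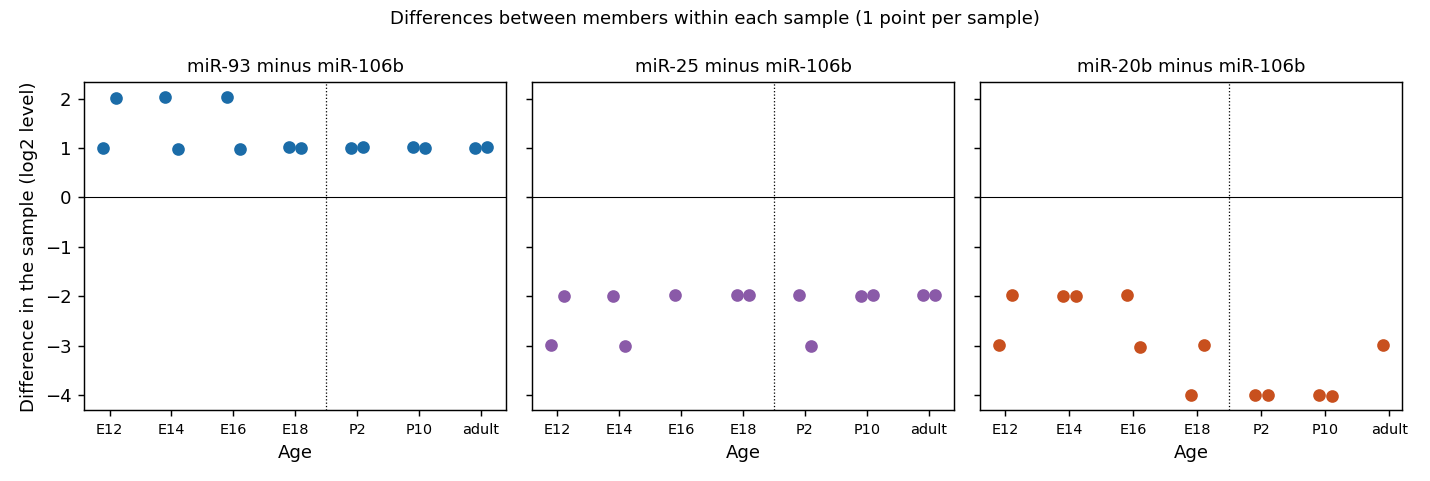
Log2 level of miR-93, miR-25 and miR-20b minus that of miR-106b in the same sample (y axis) at 7 ages (x axis), with 1 point for each sample. The points fall on whole-cycle steps, and miR-20b is near -4.00 in the 4 P2 and P10 samples and at -2.98 in the adult.

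The 4 members varied together over the samples. Against U6, Pearson's r between pairs ran from 0.54 (miR-25 with miR-20b, 12 samples) to 0.87 (miR-93 with miR-20b, 13 samples), with a median of 0.78 over 6 pairs, beside a median of 0.26 over all pairs of the 219 assays. After scaling to the global mean, r ran from 0.71 (miR-106b with miR-25) to 0.91 (miR-93 with miR-20b), with a median of 0.85, beside 0.00 over all pairs. Spearman's rho was between 0.52 and 0.86 against U6. The 2 cluster neighbours miR-93 and miR-106b, which were measured in all 14 samples, had an r of 0.87 against U6 and 0.89 against the global mean. These correlations are descriptions, and the points share the U6 value, the run day and the age. The pairs of all assays mix risers and fallers, since 31.6% of 263 assays were called higher and 31.9% lower after birth against the global mean. The 4 members all fell. The 10 other assays most like them had a mean r of 0.84 to 0.91 with them against the global mean.

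The profile most like those of the 4 members, by mean r against the global mean among the 217 other assays measured in all samples, was that of assay 395, with a mean r of 0.91. Its mean ΔCT lay between 6.16 and 6.60 at the embryonic ages and was 8.21 at P2, 9.08 at P10 and 9.15 in adult lungs. Assay 456 followed with a mean r of 0.89, and its mean ΔCT was 13.6 in the adult and 10.1 at E12. Neither number could be given a miRNA name from the files.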

How the data were processed

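Total RNA of pooled whole lungs was converted to cDNA with pooled primers, and small RNAs were measured by quantitative PCR on 2 TaqMan Low Density Array cards per sample (A and B), with 1 assay in each well. The deposited values are ΔCT against U6, which the authors treated as log2 values. The methods set undetermined reactions to an upper limit, whereas 2888 of 7224 deposited cells are blank. The run files hold the plate layout and were read only for assay names and the date of last modification of card A, called run day. The number of assays measured was 272 to 335 per sample, and 2 samples per age limit the precision.

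Changes are on minus ΔCT. The planned setting placed blanks at a common floor of 19.9. It was replaced by blanks as missing after the values were seen, because miR-25 and miR-20b were each blank in 1 sample and 36 assays were measured in 13 of 14 samples at a median mean ΔCT of 12.8. The 5 near-zero ΔCT values (below 0.001) of E14 replicate 2 were treated as missing too. The 350 assays with 2 measured samples at some age were kept, and Benjamini-Hochberg adjustment ran over those with an estimate. The ages were fitted with limma 3.58.1 in R 4.3.3 (1 mean per age, all 14 samples, moderated variance, two-sided), with adjusted p below 0.05 called. The F test covered the 6 successive steps, and postnatal against embryonic was the mean of 3 ages minus the mean of 4. Within-sample differences were tested by exact permutation with SciPy 1.17.1. The scripts were tested on simulated data. Global-mean scaling used the 219 assays measured in all samples.

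The rule for assays named was the 5 members and the 3 assays most correlated with them, of which 2 are described above by number. The remaining one was assay 580, with a mean r of 0.88. The members and lists were chosen with earlier results of these data known. Other members of the family and markers of lung cell types have no names in the table and were not analysed here. Alternatives were global-mean scaling, assays measured in all samples, no filter, 2 other treatments of blanks, an ordinary linear model as in the methods, a variance trend, the replicate number or run day as a block, and leaving out each sample. The postnatal comparison and the ordinary and run-day fits after global-mean scaling were added after the data were seen.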

Additional observations from a re-analysis of the deposited data

How the results depend on the processing

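The lower postnatal level of miR-20b, miR-93 and miR-106b kept its direction and its call under each alternative that could be fitted. That of miR-25 reversed to 0.19 with blanks at a common floor and to 0.12 with blanks at the highest value of their sample, in both of which its 1 blank embryonic sample takes a low level. The number of members lower after birth was 4, and 2 where a value in each of the 14 samples was required, a setting that tests 2 members. Under the common floor it was also 4, with miR-363, given a value in every sample, in place of miR-25. All postnatal values of miR-363 are then the floor itself, so its direction is set by that choice. With blanks at the highest value of their sample the number of members lower after birth was 3 of 5.

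Against the global mean, the number of members called was 3 between adult and E12 (4 with run day as a random block as well), 2 between E18 and E12, 0 between adult and E18 and 1 over the successive steps. These counts were equal with the ordinary test. The changes between E18 and E12 then reversed to -0.87 for miR-106b, -1.36 for miR-93 and -0.36 for miR-25, and to -0.86, -1.43 and -0.39 with run day as a random block. They also reversed without E18 replicate 1 (-0.014 for miR-106b, against 1.02 without E18 replicate 2, and -0.51 for miR-93) and without E12 replicate 1 (-0.42 for miR-93). The member added between adult and E12 with run day as a random block was miR-25 (limma adjusted p = 0.044). The correlation within run days was negative (-0.16) in that fit.

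Blanks at the highest value of their sample left 1 member called over the 7 ages, and either floor left 0 over the successive steps. Over the 7 ages, 2 members were called in place of 3 with the ordinary test, with run day as a random block, with the common floor and with a value required in every sample. The ordinary test called 1 member between adult and E18 and 1 over the steps. Requiring a value in every sample, 1 was called between adult and E12 and 0 over the steps. Leaving out 1 sample gave 1 to 3 members called over the 7 ages (1 without adult replicate 1), 0 to 2 between adult and E12, 0 to 3 between adult and E18, 0 to 3 over the successive steps, and 3 to 4 lower after birth (3 where miR-25 or miR-20b then lacked an age and could not be fitted).

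Within samples, miR-20b minus miR-106b changed by -1.38 to -1.08 on leaving out 1 sample, and its raw p was above 0.05 without any 1 of the 4 P2 and P10 samples. Taken as adult minus E18 only, it reversed to 0.52. MiR-20b minus miR-93 was -1.01 to -0.66 on leaving out 1 sample, with raw p of 0.0177 without E18 replicate 1 and 0.0202 without adult replicate 1, and was 0.0073 as adult minus E12 and 0.53 as adult minus E18. MiR-25 minus miR-93 was 0.50 to 0.73, and 0.0088 as adult minus E18.

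No pairing of the samples by replicate number was seen. The correlation of deviations ran from -0.42 to 0.24 over 21 pairs of ages (median -0.02) and was over 0.1 in 3 of them. With 2 samples per age and steps of about 1 cycle, a pairing is not excluded by this. With the replicate block, 1 member (miR-93) was called between adult and E12 in place of 2, and no other count of members called moved. The causes of these dependences were not tested. Precision is limited by 2 samples per age, by steps of about 1 cycle, and for miR-20b by 1 adult value.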
